A study of Mus musculus with 16 samples.

Results

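The inhibitor of DNA binding (ID) genes *Id1*, *Id2*, *Id3* and *Id4* were followed in mouse lung endothelial cells (MLECs) given a BMP9 complex with or without endoglin, the BMP9 co-receptor encoded by *Eng*. The members were chosen by gene symbol: they are 4 of the 55414 genes listed in the count table, and all 4 passed the filter on low counts that left 15693 genes for testing. The MLECs came from 4 isolations with CD31 and then ICAM2 beads from mice on a C57BL/6 background that carried *Eng* fl/fl, Rosa26-CreERT2 and the Immorto transgene, which lets cultures be kept for longer. The number of animals per isolation is not given in the sources used here. The paper reports that MLECs were cultured with interferon-γ and SB431542, and that both were left out of the medium before serum starvation. Each isolation was divided into a vehicle-treated culture (Ctrl) and a culture in which 4-OH-tamoxifen had activated Cre (KO), and each culture was serum-starved and exposed for 90 min to PBS or to a BMP9 complex that held 0.2 ng/ml of growth factor domain. In Ctrl cells this was sENG(M):BMP9, in which the soluble monomeric endoglin ectodomain is bound to BMP9, while the complex given to KO cells was pro:BMP9, which keeps the prodomain. The soluble endoglin was given in large excess to keep its complex stable, so ligand-treated Ctrl cells alone also received unbound soluble endoglin. There were thus 4 groups (PBS-treated and sENG(M):BMP9-treated Ctrl cells, PBS-treated and pro:BMP9-treated KO cells) of 4 libraries each, 1 per isolation. All groups carried the floxed allele, Cre and the Immorto transgene, tamoxifen was given to the KO cultures alone, and the ligand differed between the genotypes. Loss of endoglin and exposure to tamoxifen therefore cannot be told apart. In ligand-treated cells, the form of BMP9 and the excess soluble endoglin cannot be told apart from them either. Rosa26 drives Cre in every cell of a culture, not in endothelial cells alone.

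ID proteins carry a helix-loop-helix dimerisation domain but no basic region to bind DNA. They pair with E proteins, the ubiquitous basic helix-loop-helix (bHLH) factors, and so keep E proteins and their tissue-restricted partners off DNA. The genes are textbook direct targets of BMP signalling: BMP9 binds ALK1 (encoded by *Acvrl1*), BMPR2 and endoglin on endothelium, SMAD1 and SMAD5 are phosphorylated, and complexes with SMAD4 act at *Id* enhancers. *Id1* and *Id3* are best known for their joint role in blood vessel growth, *Id2* for lymphoid and neural development and *Id4* for the brain and mammary gland.

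The libraries held 14869115 to 17242117 counts each (median 15996523.5). *Eng* measured between 375 and 594 CPM in Ctrl PBS libraries and between 40.1 and 60.0 CPM in KO PBS libraries, and the KO level was lower by 3.15 on the log2 scale (SE 0.108, adjusted p = 2.69e-12, edgeR's quasi-likelihood test with Benjamini-Hochberg adjustment, as for all adjusted p-values here). With ligand it lay between 525 and 776 CPM in Ctrl and between 115 and 130 CPM in KO cells, so *Eng* reads were reduced but not absent under either treatment. Counts were summed over the whole gene, so transcripts of a recombined allele cannot be told from intact ones. The paper reports the loss of ENG protein in KO cells by staining and immunoblot. CPM are counts scaled to the TMM-normalised library size. All 10 endothelial markers examined, among them *Pecam1*, *Cdh5* and *Erg*, were above 1 CPM on average in each group, and their summed level ran from 3486 to 7578 CPM in Ctrl PBS, 3724 to 7637 in Ctrl sENG(M):BMP9, 3728 to 7679 in KO PBS and 3791 to 7642 in KO pro:BMP9. Of the 4 epithelial markers, *Sftpc* was at 0 in all libraries, *Epcam* and *Cdh1* reached at most 0.252 and 4.02 CPM, and *Krt18*, a keratin gene that is not limited to epithelium, lay between 46.0 and 177 CPM. Of the 4 leukocyte markers, *Ptprc* and *Adgre1* reached at most 0.317 and 0.390 CPM, while *Cd68* lay between 27.3 and 40.2 CPM and *Lyz2* between 3.07 and 13.5 CPM. All 8 fibroblast and mural markers were detected, with summed levels of 105 to 753 CPM in Ctrl PBS, 112 to 768 in Ctrl sENG(M):BMP9, 102 to 683 in KO PBS and 97.5 to 683 in KO pro:BMP9. These sums followed the isolation, lying between 97.5 and 112 CPM in isolation 2 and between 683 and 768 CPM in isolation 3. Of the 3 lymphatic markers, *Lyve1* lay between 3036 and 5712 CPM, *Pdpn* between 12.8 and 161 CPM and *Prox1* between 6.34 and 66.1 CPM. The label of lung endothelial cells held for endothelium but does not separate blood from lymphatic endothelium. In bulk RNA, fewer cells of a type and less RNA per cell cannot be told apart.

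The *Id* genes lie on 4 chromosomes (GRCm39 coordinates from the count table). *Id1* is at chr2:152578171-152579330 on the plus strand, *Id2* at chr12:25143798-25147139 on the minus strand, *Id3* at chr4:135870808-135873066 on the plus strand and *Id4* at chr13:48414704-48419502 on the plus strand. All are protein-coding, and values are sums over the whole gene, so transcripts were not separated. In GENCODE models of the same build, which may not be the release used for counting, *Id1*, *Id2* and *Id3* have 6 transcripts each and *Id4* has 2. No other listed gene overlapped *Id1*, *Id2* or *Id3*. The start of *Id4* lies within 2 long non-coding genes on the other strand, *Gm49291* with 9 counts and *A330033J07Rik* with 0 counts over all 16 libraries. A processed pseudogene described as similar to *Id2*, *Gm6175*, had 0 counts in all.

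The promoters are shown because the members rose together and SMAD1/5 complexes are known to favour GC-rich sites. RefSeq promoters (GRCm38.p6) were found for 3 of the 4 members, *Id2*, *Id3* and *Id4*. The 250 bases before each annotated start are printed 5′ to 3′ on the strand of the gene, with capitals marking GGCGCC and GGAGCC on either strand, so that GGCTCC is GGAGCC read on the opposite strand. The windows are chr12:25096093-25096342 on the minus strand for *Id2*, chr4:136143572-136143821 on the plus strand for *Id3* and chr13:48260866-48261115 on the plus strand for *Id4*.
*Id2* promoter: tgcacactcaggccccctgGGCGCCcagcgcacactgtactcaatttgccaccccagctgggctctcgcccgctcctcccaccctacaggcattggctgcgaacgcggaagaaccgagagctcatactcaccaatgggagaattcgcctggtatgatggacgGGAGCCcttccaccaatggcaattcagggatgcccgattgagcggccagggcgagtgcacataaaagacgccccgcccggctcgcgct
*Id3* promoter: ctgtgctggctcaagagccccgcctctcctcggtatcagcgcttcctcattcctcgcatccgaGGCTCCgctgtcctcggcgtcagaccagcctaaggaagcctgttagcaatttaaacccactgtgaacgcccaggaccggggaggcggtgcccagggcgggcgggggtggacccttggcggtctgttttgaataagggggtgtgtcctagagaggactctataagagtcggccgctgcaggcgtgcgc
*Id4* promoter: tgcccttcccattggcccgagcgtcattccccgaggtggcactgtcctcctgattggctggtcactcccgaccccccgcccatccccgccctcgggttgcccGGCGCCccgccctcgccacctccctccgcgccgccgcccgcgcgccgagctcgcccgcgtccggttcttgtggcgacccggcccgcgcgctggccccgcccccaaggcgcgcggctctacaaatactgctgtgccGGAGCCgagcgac
GGCGCC began 231 bases before the start of *Id2* and 148 bases before that of *Id4*, and did not occur in the window of *Id3*. GGAGCC began 88 bases before the start in *Id2*, 13 bases before it in *Id4*, and on the opposite strand 187 bases before it in *Id3*. Over windows of 300 bases (250 before and 50 after the start), GGCGCC on either strand was present in 12% and GGAGCC in 30.5% of the promoters of 27025 genes, and in 21.2% and 41.6% of the 11038 promoters of tested genes. Promoters of genes called higher with ligand held them in 34.2% and 52.1% of 685 cases in Ctrl and in 34.1% and 52.5% of 440 cases in KO cells. GTCT, the short SMAD element, matched 1 time in *Id2*, 3 times in *Id3* and not in *Id4*, against 88% of all promoters and 85.9% of those of tested genes with a match. GGCGCC followed after 5 bases by GTCT, the spacing of the classical BMP response element, occurred in none of these windows and in 0.0703% of all promoters. The E-box CANNTG, the site of bHLH dimers, was present in the window of *Id2* (196 bases before the start), in 72.1% of all promoters and in 63% of those of tested genes. In promoters of genes called higher with ligand, GTCT was present in 82.6% in Ctrl and 83.6% in KO cells. The E-box was present in 56.6% and 59.3% of them, so both were less frequent there than in promoters of tested genes. The GC content was 63.3% for *Id2*, 60% for *Id3* and 73.3% for *Id4*, against a median of 52.7% over all promoters. The medians over promoters of tested genes and of called genes were not computed, so the motif shares were not compared at equal GC content. Promoters of genes called lower with ligand were not counted. A match describes the letters in these windows only.

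The comparison of ligand with PBS in each genotype asks how the family answered BMP9 when endoglin was present and when it was lost. All 4 *Id* genes were higher with ligand in both genotypes, each in 4 of 4 isolations, and the ligand-treated and PBS-treated libraries did not overlap for any member. The share of all tested genes that did so was not counted, so these 2 features describe the members only. The 4 of 4 members called in Ctrl cells compare with 9.69% of all tested genes (5.86% called higher), and the 4 of 4 called in KO cells with 5.59% (3.68% called higher). The median log2 fold change of the members was 2.20 in Ctrl and 2.09 in KO cells, where the medians of all tested genes were -0.01 and 0.00. *Id1* and *Id2* rose most, *Id3* rose from the highest starting level, and *Id4* stayed the lowest of the family throughout.

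**Figure D1:**
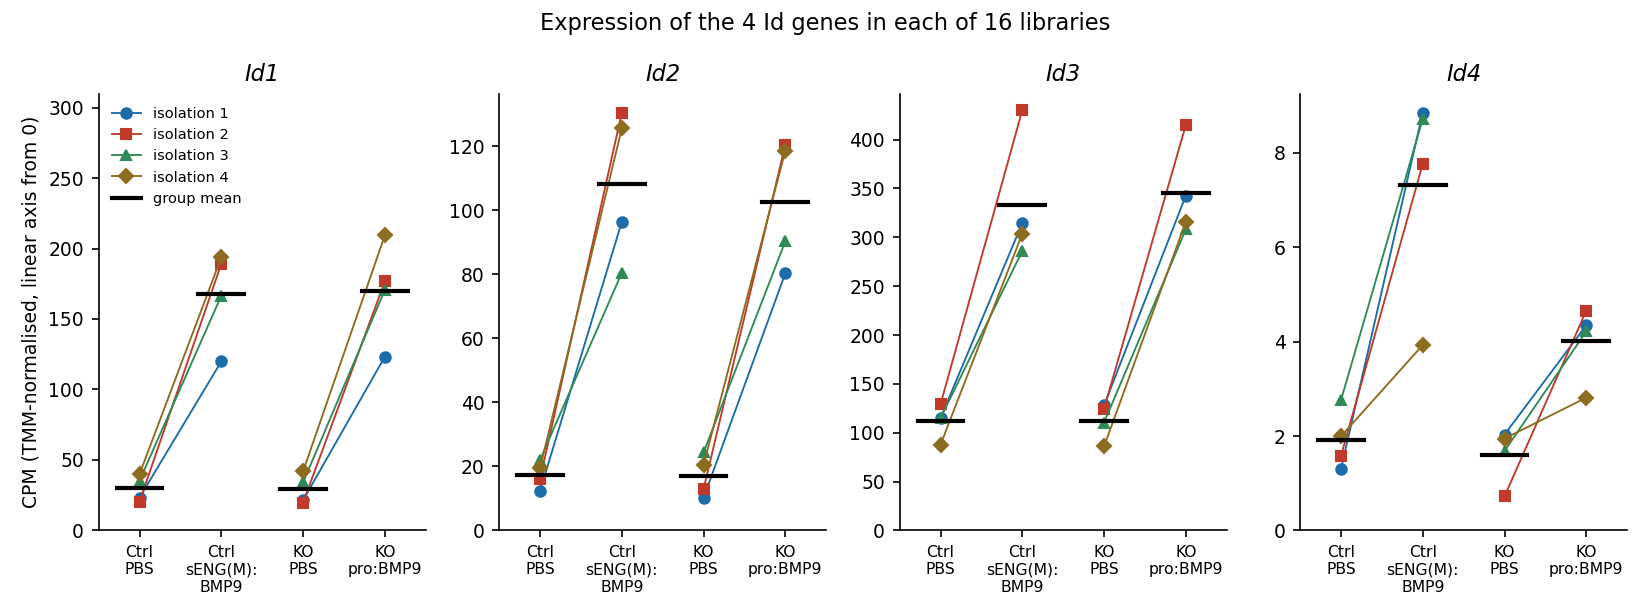
CPM of each *Id* gene (vertical axes, linear, from 0, with a scale of its own in each panel) in the 16 libraries, with the PBS and ligand libraries of an isolation joined by a line and black bars for group means (n = 4). Every line goes up; ligand-treated levels of *Id1*, *Id2* and *Id3* sit at similar heights in Ctrl and KO cells, whereas the mean of *Id4* is 7.32 CPM in Ctrl and 4.01 CPM in KO cells.

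*Id1*, a target long used as a readout of BMP9 and ALK1 signalling in endothelium, measured 23.3, 20.4, 35.3 and 39.9 CPM in isolations 1 to 4 of Ctrl PBS and 119.9, 189, 167 and 194 CPM with sENG(M):BMP9. The lowest ligand-treated Ctrl library was thus 3.002 times the highest PBS-treated one. In KO cells *Id1* measured 21.4, 19.8, 34.0 and 41.9 CPM with PBS and 123, 177, 171 and 209 CPM with pro:BMP9, a gap of 2.94 times between the closest libraries. The fitted increase was 5.69-fold in Ctrl (95% interval 4.71 to 6.86, log2 fold change 2.51, SE 0.129, adjusted p = 1.42e-10) and 5.87-fold in KO cells (4.86 to 7.09, log2 2.55, SE 0.129, adjusted p = 2.05e-10). In the order of size, *Id1* held place 21 among the 920 genes called higher in Ctrl and place 13 among the 577 called higher in KO cells. Its largest increase was in isolation 2 in both genotypes (log2 changes of 3.20 and 3.15), and the other isolations lay between 2.23 and 2.36 in Ctrl and between 2.32 and 2.52 in KO cells. Isolation 2 also had the lowest fibroblast and mural marker sums, and the part of these cells in the larger increase was not tested.

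*Id2*, known from innate lymphoid cells and also induced by BMPs in endothelium, measured 12.3, 15.96, 22.0 and 19.4 CPM in Ctrl PBS and 96.4, 131, 80.5 and 126 CPM with sENG(M):BMP9. In KO cells it measured 10.2, 12.9, 24.3 and 20.5 CPM with PBS and 80.4, 121, 90.4 and 119 CPM with pro:BMP9. Isolation 3 had the highest PBS level in each genotype and the smallest increase, with log2 changes of 1.86 in Ctrl and 1.89 in KO cells, while the other isolations lay between 2.69 and 3.02 in Ctrl and between 2.53 and 3.21 in KO cells. The fitted increase was 6.22-fold in Ctrl (95% interval 4.82 to 8.02, log2 2.64, SE 0.175, adjusted p = 4.52e-09) and 6.02-fold in KO cells (4.66 to 7.78, log2 2.59, SE 0.176, adjusted p = 1.18e-08). The closest libraries of the PBS and ligand groups were 3.65 times apart in Ctrl and 3.30 times apart in KO cells, the widest gaps of the family.

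*Id3*, the partner of *Id1* in vessel growth, was already abundant without ligand, at 115, 129, 115 and 87.7 CPM in Ctrl PBS, and measured 314, 430.0, 286 and 304 CPM with sENG(M):BMP9. In KO cells the values were 128, 124, 110.3 and 86.0 CPM with PBS and 343, 415, 308 and 316 CPM with pro:BMP9. Isolation 2 was the highest and isolation 3 the lowest of the ligand-treated libraries in both genotypes, and isolation 4 was the lowest with PBS. The fitted increase was 2.98-fold in Ctrl (95% interval 2.67 to 3.33, log2 1.58, SE 0.0752, adjusted p = 5.02e-11) and 3.09-fold in KO cells (2.76 to 3.44, log2 1.63, SE 0.0753, adjusted p = 4.79e-11). This was the smallest fold change of the 4 genes in Ctrl cells, and it had the smallest standard error in both genotypes.

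*Id4*, the least expressed member, had low counts, above all in the PBS libraries. Its counts were 20, 24, 46 and 33 in Ctrl PBS (1.30, 1.58, 2.76 and 1.99 CPM) and 149, 116, 150 and 68 with sENG(M):BMP9 (8.85, 7.77, 8.72 and 3.93 CPM). In KO cells the counts were 32, 11, 28 and 33 with PBS (2.03, 0.720, 1.68 and 1.95 CPM) and 63, 74, 65 and 43 with pro:BMP9 (4.35, 4.66, 4.22 and 2.81 CPM). Counting error is large at this level: the 95% Poisson interval of the lowest library, KO PBS isolation 2, runs from 5.49 to 19.7 counts around 11, and such intervals cover counting error only. *Id4* rose 3.73-fold in Ctrl (95% interval 2.58 to 5.40, log2 1.90, SE 0.254, adjusted p = 3.3e-05) and 2.48-fold in KO cells (1.64 to 3.74, log2 1.31, SE 0.282, adjusted p = 0.00613). The KO call depended on isolation 2, in which the increase was largest at 2.501 on the log2 scale: without that isolation the log2 fold change was 0.98 (adjusted p = 0.0944). The smallest increase was in isolation 4 in both genotypes, at 0.94 in Ctrl and 0.50 in KO cells.

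The members' responses were also compared with each other within isolations. The log2 increase of *Id1* exceeded that of *Id3* in 4 of 4 isolations of each genotype, by 0.94 ± 0.40 in Ctrl and 0.95 ± 0.41 in KO cells (mean ± SD, n = 4). *Id2* exceeded *Id3* in 4 of 4 as well, by 1.06 ± 0.42 and 1.02 ± 0.57. An exact sign-flip test over 4 isolations gave p = 0.125 in each of these cases (two-sided), the smallest value that this design allows, so none of the 12 pairs compared could reach the threshold. *Id1* and *Id2* took no fixed order, as *Id1* increased more in 2 of 4 isolations in Ctrl and in 1 of 4 in KO cells. *Id3* and *Id4* did not keep an order either, with *Id3* increasing more in 1 of 4 isolations in Ctrl and in 3 of 4 in KO cells.

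Levels of different genes were compared per length as RPKM, using the gene lengths in the count table. *Id3* was the highest at 62.3 ± 9.65 RPKM in Ctrl PBS (mean ± SD, n = 4), followed by *Id1* at 25.6 ± 8.08, *Id2* at 7.15 ± 1.72 and *Id4* at 0.496 ± 0.165. With sENG(M):BMP9 the order was the same, at 186 ± 36.5 for *Id3*, 144 ± 29.2 for *Id1*, 44.4 ± 9.80 for *Id2* and 1.90 ± 0.600 for *Id4*. The neighbours *Id3* and *Id1* did not overlap in Ctrl PBS but did with ligand, where *Id3* ranged from 160 to 240.1 and *Id1* from 103 to 167 RPKM. In KO cells the means were 62.6, 25.2, 6.96 and 0.414 RPKM with PBS and 193, 147, 42.0 and 1.04 RPKM with pro:BMP9, in the same order. The listed length of *Id1*, 1160 bases, equals its genomic span, so its intron counted as part of the gene.

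**Figure D2:**
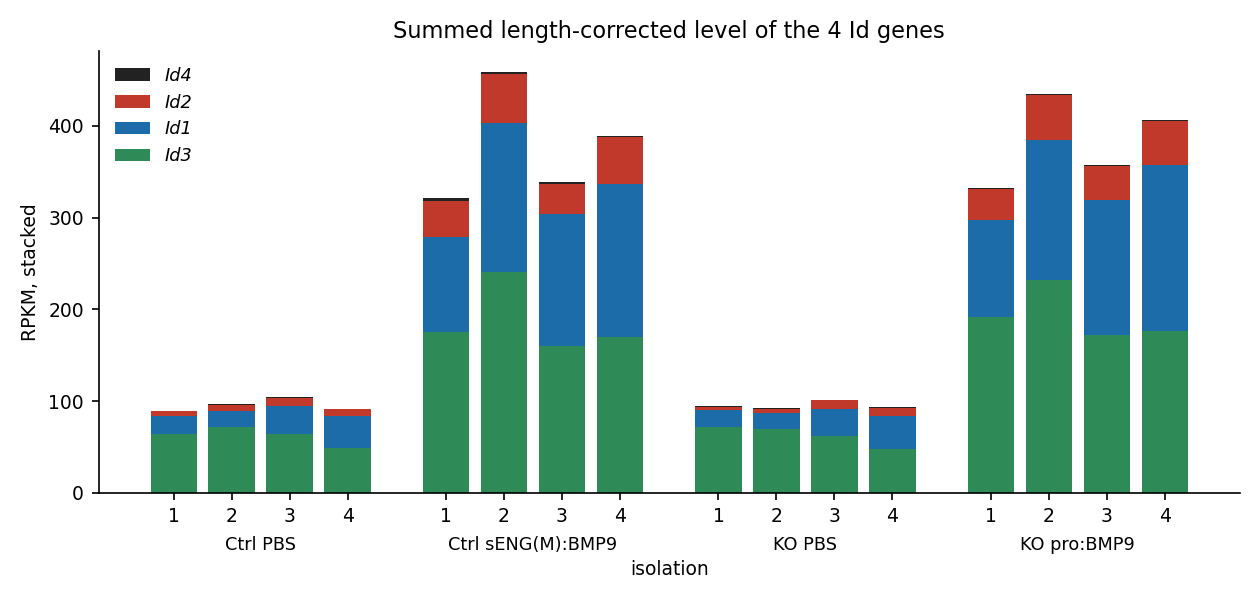
RPKM of the 4 *Id* genes stacked for each of the 16 libraries (horizontal axis, isolation within group; vertical axis, RPKM from 0). The stacks rise from 89.6 to 104 RPKM in Ctrl PBS to between 321 and 459 RPKM with sENG(M):BMP9, and the *Id3* and *Id1* bands widen most in RPKM, while *Id4* is barely visible.

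Summed over the family, the level went from 95.6 ± 6.49 to 377 ± 61.8 RPKM in Ctrl and from 95.2 ± 4.21 to 383 ± 46.5 RPKM in KO cells (mean ± SD, n = 4). *Id3* made up 65.2% of the sum in Ctrl PBS and 49.5% with sENG(M):BMP9, and 65.9% and 50.6% in KO cells. The share of *Id1* was 26.8% with PBS and 38.3% with ligand in Ctrl, and 26.4% and 38.2% in KO cells. *Id2* contributed 7.44% and 11.7% in Ctrl and 7.26% and 10.9% in KO cells. The share of *Id4* was 0.513% with PBS and 0.522% with ligand in Ctrl, whereas in KO cells it was 0.434% with PBS and 0.276% with ligand. Among all tested genes ranked by RPKM, *Id3* moved from place 747 in Ctrl PBS to 203 with ligand, *Id1* from 2110 to 284, *Id2* from 6288 to 1123 and *Id4* from 13758 to 10621.

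The comparison of KO with Ctrl cells asks whether the family differed by genotype before and after ligand. None of the 4 members was called in PBS, where 0.0191% of all tested genes were called, and none was called with ligand, where 0.255% were. With PBS, the log2 differences of KO from Ctrl were -0.03 for *Id1*, -0.04 for *Id2*, 0.01 for *Id3* and -0.25 for *Id4*, with adjusted p-values of 0.991, 0.991, 0.997 and 0.934. Single isolations of *Id4* gave 0.60, -1.01, -0.67 and -0.03, so its PBS values differed between isolations by more than the fitted difference. At unadjusted p, none of these values was under 0.05 either, while *Eng* had fallen to 11.3% of its Ctrl level in the same libraries.

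With ligand, the KO level of *Id1* was 1.01 times the Ctrl level (95% interval 0.858 to 1.19), that of *Id2* 0.942 times (0.758 to 1.17) and that of *Id3* 1.04 times (0.937 to 1.15), with adjusted p-values of 0.987, 0.925 and 0.892. A missed threshold does not show that the levels were equal. The lower bounds give the largest reduction of each gene within its 95% interval, and larger ones are not excluded. *Id4* was at 49.8, 60.6, 49.1 and 72.5% of the Ctrl level in isolations 1 to 4, lower in 4 of 4. The fitted difference of *Id4* was -0.84 on the log2 scale (SE 0.228, 95% interval -1.32 to -0.37, unadjusted p = 0.00165 and adjusted p = 0.119 by edgeR), so it did not pass the threshold over all tested genes. The ranges of the 2 groups overlapped, since isolation 4 of Ctrl lay at 3.93 CPM and the KO libraries reached 4.66 CPM. The adjusted p was between 3.98e-06 and 1 over 11 alternative analyses, 3 of which passed the threshold. Of the fibroblast and mural markers, *Pdgfrb* was also lower in KO cells with ligand (log2 difference -0.29, adjusted p = 0.0289), and the other 7 were not called; the part of these cells in the *Id4* difference was not tested.

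**Figure D3:**
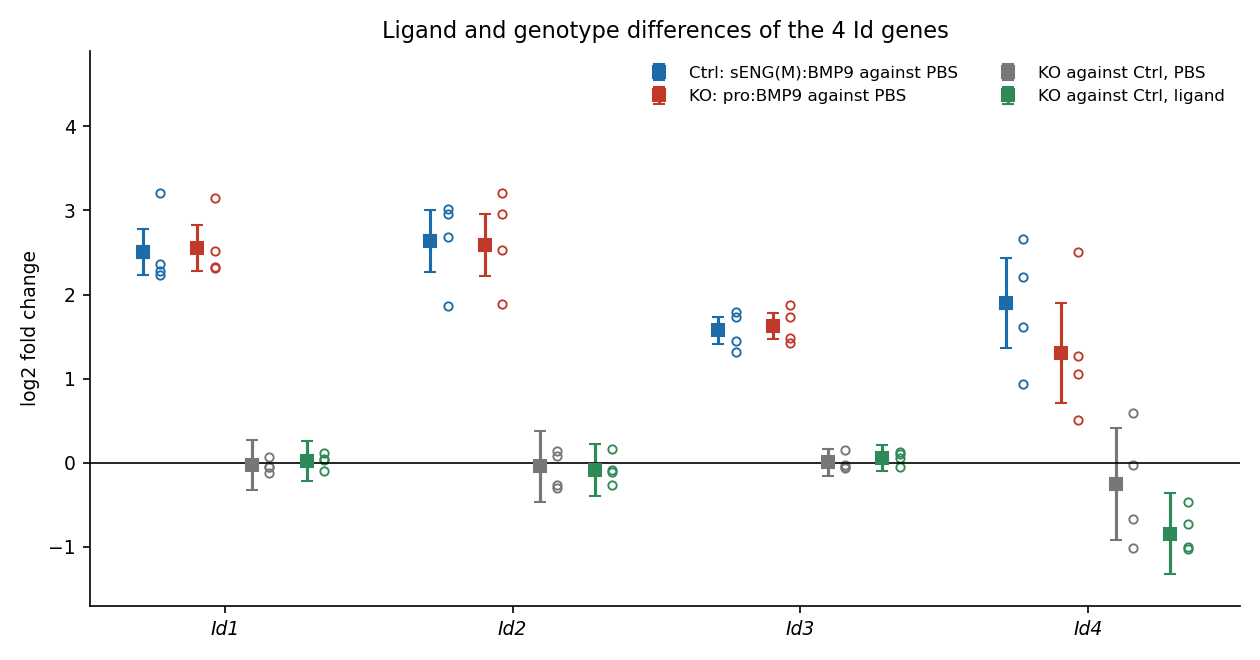
Log2 fold changes of the 4 *Id* genes (vertical axis) for ligand against PBS in Ctrl (blue) and KO (red) cells and for KO against Ctrl cells with PBS (grey) and with ligand (green), as fitted values with 95% intervals (squares) and single isolations (open circles). Ligand values lie above 0 for every member and isolation, and genotype values of *Id1*, *Id2* and *Id3* lie around 0. Those of *Id4* spread on both sides of 0 with PBS, from -1.01 to 0.60, and are below 0 in 4 of 4 isolations with ligand.

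The difference between the ligand responses of KO and Ctrl cells was tested as an interaction. No member was called, and 0% of all tested genes were. Of the 15693 tested genes 565 had an unadjusted p under 0.05, which is under 5% of them, and DESeq2 called 20 genes, none of them a member. The response in KO minus that in Ctrl was 0.05 for *Id1*, -0.05 for *Id2* and 0.05 for *Id3* on the log2 scale, with 95% intervals of -0.33 to 0.43, -0.57 to 0.48 and -0.17 to 0.27. For *Id4* it was -0.59 (SE 0.392, 95% interval -1.42 to 0.23, adjusted p = 1), and isolation 2 went the other way, with values of -1.60, 0.29, -0.35 and -0.43 in isolations 1 to 4. The CPM gained with ligand in KO cells, as a share of the gain in Ctrl cells of the same isolation, ranged from 93.0 to 109% for *Id1*, 83.5 to 113% for *Id2* and 96.5 to 116% for *Id3*. For *Id4* this share ranged from 30.7 to 63.6%, so each isolation of KO cells gained fewer *Id4* reads than its Ctrl counterpart, whereas the fold change of isolation 2 was larger in KO than in Ctrl cells, with 11 counts in its KO PBS library.

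**Figure D4:**
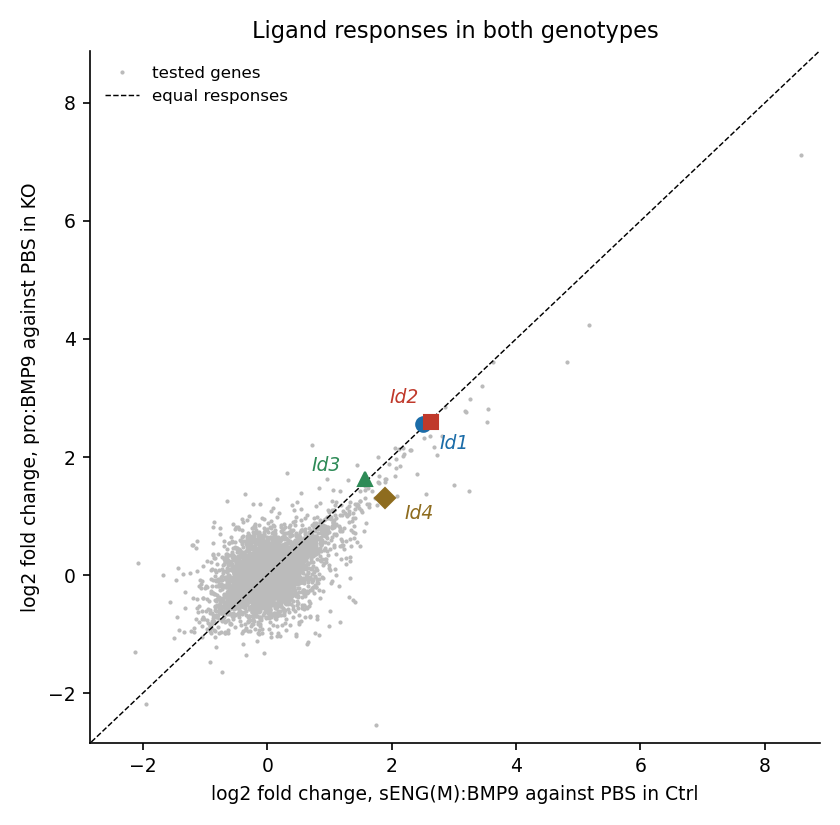
Log2 fold change with sENG(M):BMP9 in Ctrl cells (horizontal axis) against that with pro:BMP9 in KO cells (vertical axis) for all tested genes (grey points) and the *Id* genes (coloured), with a dashed line for equal responses. *Id1*, *Id2* and *Id3* lie close to the line, at 2.51 and 2.55, 2.64 and 2.59, and 1.58 and 1.63, while *Id4* lies under it at 1.90 and 1.31.

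The genes with the most similar profiles were found by the root mean square difference of isolation-centred log2 CPM over the 16 libraries. *Id2* was the nearest of all tested genes to *Id1* and *Id1* the nearest to *Id2* (0.204 log2 units), and *Sox18*, an endothelial transcription factor, and *Smad7*, an inhibitory SMAD, completed the nearest 3 of both. *Sox18* rose by 2.62 in Ctrl and 2.35 in KO cells on the log2 scale, and *Smad7* by 2.87 and 2.85. The nearest to *Id3* were *Gse1* (0.186), *Tmem200b* (0.201) and *Nuak1* (0.201), a kinase gene. *Id4* was nearest to *Dnm3os* (0.338), *Ptgs2* (0.339), which encodes the prostaglandin synthase COX-2, and *Cd40* (0.351). Among the members, *Id3* took place 23 and *Id4* place 44 of all tested genes in the order of nearness to *Id1*, by a measure that also reflects the size of the fold change and the counting error of *Id4*.

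Of the E proteins, which ID proteins bind directly, 0 of the 3 genes *Tcf3*, *Tcf4* and *Tcf12* were called with ligand in either genotype (adjusted p under 0.05 by edgeR). None had an unadjusted p under 0.05 by the same test (lowest 0.13). Since 9.69% of all tested genes were called in Ctrl and 5.59% in KO cells, 0 of 3 is no result about these genes as a set. The counts of the lists below can be read against the same shares. *Tcf4* was the most abundant at 409 CPM in Ctrl PBS, with log2 fold changes of -0.06 in Ctrl and -0.03 in KO cells, and those of *Tcf3* (0.06 and -0.04) and *Tcf12* (0.02 and 0.03) were as small. Of 23 tissue-restricted bHLH genes 9 were tested, and 4 rose in Ctrl, while 3 rose and 1 fell in KO cells. *Atoh8*, a known BMP target, rose by 3.64 (SE 0.111, adjusted p = 8.06e-14) in Ctrl and 3.62 (SE 0.115, adjusted p = 2.16e-13) in KO cells. *Tal1*, the haematopoietic and endothelial factor that acts with E proteins, rose by 1.08 and 0.86, and its relative *Lyl1* by 0.56 and 0.47. *Scx*, a tendon factor, rose by 1.32 in Ctrl (adjusted p = 0.0156) and had 1.03 in KO cells (adjusted p = 0.122), and *Ascl2* fell by 1.05 in KO cells (adjusted p = 0.0199), with -0.85 in Ctrl (adjusted p = 0.0624).

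The HES, HEY and BHLHE repressors, bHLH proteins that bind DNA themselves, held the largest share of called genes among the lists: of 12 genes 8 were tested, and 7 rose in Ctrl and 6 in KO cells, with none lower. Their median log2 fold change was 1.19 in Ctrl and 1.03 in KO cells. *Hey1*, an effector of Notch and BMP9 signalling in endothelium, rose by 3.55 in Ctrl and 2.82 in KO cells, and it was the only gene of this list called lower in KO than in Ctrl cells with ligand (log2 difference -0.73, adjusted p = 0.00835). *Hes7* rose by 2.73 and 2.03, *Hey2* by 1.44 and 1.86, *Hes1* by 0.93 and 0.95, *Bhlhe40* by 0.77 and 0.85 and *Bhlhe41* by 0.47 and 0.44. Of 14 tested genes for other ID partners and ID turnover, such as the retinoblastoma family and the deubiquitinase *Usp1*, 1 was called in each genotype. This count is near the share of all tested genes called, 9.69% in Ctrl and 5.59% in KO cells, so it does not set the list apart. The called gene was *Ets1*, an ETS factor of endothelium, which fell by 0.37 in Ctrl and 0.29 in KO cells.

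**Figure D5:**
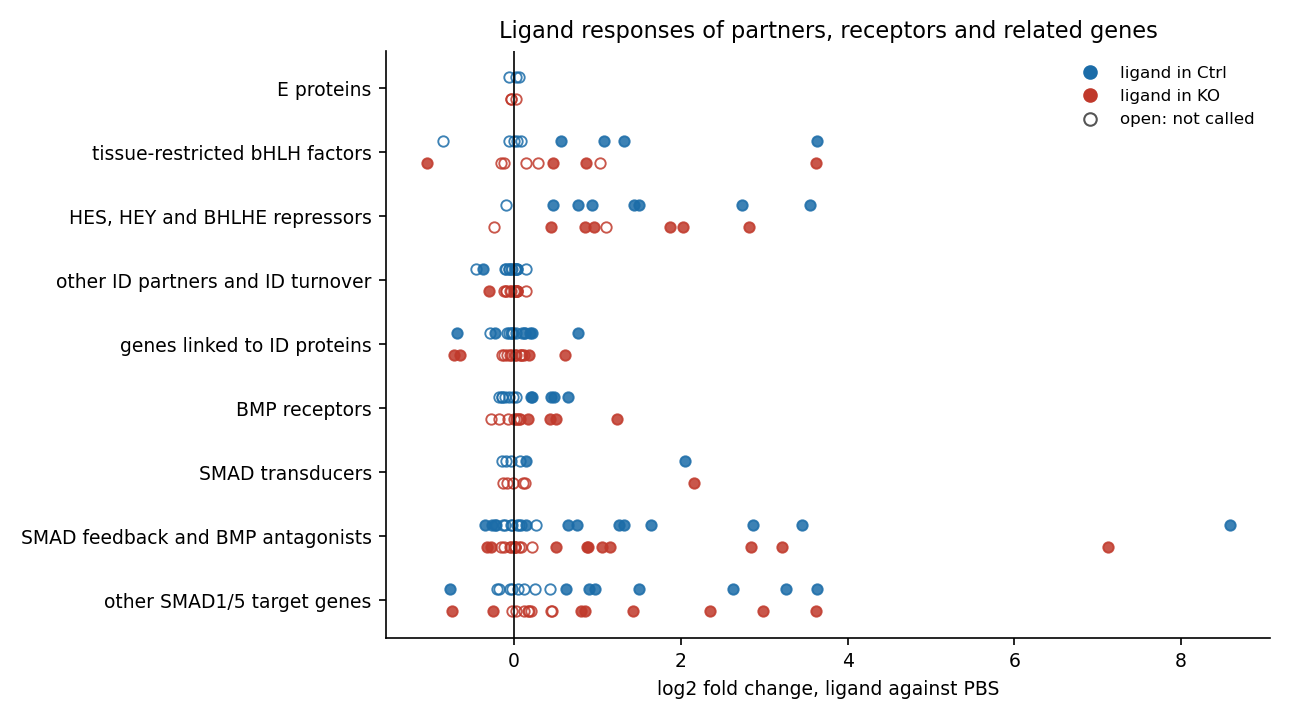
Log2 fold change with ligand (horizontal axis) of the tested genes of 9 lists (rows) in Ctrl (blue) and KO (red) cells, filled where adjusted p was under 0.05. The E proteins sit close to 0, the HES, HEY and BHLHE repressors mostly to the right of it, and *Nog*, at 8.58 in Ctrl, is the point furthest to the right, at a position that depends on the prior count because its Ctrl PBS libraries were nearly empty.

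Among 15 genes linked to ID proteins in endothelium and the cell cycle, 4 rose and 2 fell in Ctrl, and 2 rose and 2 fell in KO cells. *Ephb4*, a receptor that marks veins, rose by 0.76 in Ctrl and 0.61 in KO cells. *Dll4*, a Notch ligand of tip and arterial cells, fell by 0.68 and 0.65. *Cdkn2b*, a cell cycle inhibitor, fell by 0.23 in Ctrl (adjusted p = 0.00215), where its KO value was -0.12 (adjusted p = 0.203). *Itgb4* rose by 0.19 and 0.18, *Cxcr4* fell by 0.72 in KO cells (adjusted p = 0.0282), with -0.29 in Ctrl (adjusted p = 0.445), and *Fgfr1* rose by 0.13 in Ctrl (adjusted p = 0.0315), with 0.10 in KO cells (adjusted p = 0.201).

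Upstream of the *Id* genes, 5 of 12 tested BMP receptor genes rose in Ctrl and 4 in KO cells, with none lower. *Eng* itself rose by 0.48 in Ctrl and 1.23 in KO cells, *Bmpr2* by 0.64 and 0.51, *Acvr1* by 0.45 and 0.43 and *Acvrl1* by 0.21 and 0.16, and *Bmpr1a* rose by 0.21 in Ctrl (adjusted p = 0.0153) and had 0.07 in KO cells (adjusted p = 0.644). Of 6 SMAD transducers 2 rose in Ctrl and 1 in KO cells. *Smad9*, the third BMP-regulated SMAD gene, rose by 2.05 and 2.16, and *Smad5* by 0.15 in Ctrl (adjusted p = 0.0324), with 0.14 in KO cells (adjusted p = 0.074).

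Of 21 tested genes for SMAD feedback and BMP antagonists, 9 rose and 3 fell in Ctrl, and 8 rose and 2 fell in KO cells. The inhibitory SMAD *Smad6* rose by 3.45 in Ctrl and 3.21 in KO cells, and the ubiquitin ligase *Smurf2* by 1.25 and 1.05. *Nog*, a secreted BMP antagonist, was at 0.0150 CPM in Ctrl PBS and rose to 9.35 CPM in Ctrl and 3.33 CPM in KO cells, and it was lower in KO than in Ctrl cells with ligand (log2 difference -1.48, adjusted p = 0.000909). *Pmepa1* rose by 1.64 and 1.15 and was also lower in KO cells with ligand (-0.40, adjusted p = 0.0234), and the corepressor *Ski* rose by 0.65 and 0.51. Of 16 other tested SMAD1/5 target genes, 7 rose and 1 fell in Ctrl, and 6 rose and 2 fell in KO cells. Besides *Atoh8* and *Sox18*, *Dlx2* rose by 3.26 and 2.98, *Sgk1* by 1.495 and 1.43, *Junb* by 0.97 and 0.81 and *Gata2* by 0.90 and 0.85. Over all 9 lists, the medians of the tested genes ranged from -0.03 to 1.19 in Ctrl cells.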

How the data were processed

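Stranded libraries were sequenced as paired-end reads by the provider. According to the submitters' processing notes, HISAT2 2.0.5, featureCounts 1.5.0-p3 and DESeq2 1.26.0 were used with GRCm39; the annotation release is not given in the sources used here. The authors deposited whole-number read counts for each gene, without normalisation. Their later steps (quantile normalisation, ComBat and DESeq2) are not part of the deposited counts; the batch given to ComBat is not named, and isolation was taken as the batch where these steps were tried here.

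Libraries were grouped by their labels, and none was left out. Low genes were removed with filterByExpr (groups as design, minimum count 10, minimum total 15), and counts were scaled by TMM and fitted with edgeR 4.0.16 in R 4.3.3 by quasi-likelihood to all 16 libraries, with isolation as a block and Benjamini-Hochberg adjustment over the 15693 genes tested (threshold 0.05, 5 comparisons). Replicate numbers stand for isolations, and deviations of same-numbered libraries from the group means correlated at 0.757 on average over 24 pairs (lowest 0.670). The mean of -0.251 over 72 pairs with different numbers largely follows from this, because deviations from a group mean cancel within the group. CPM and RPKM carry no prior count, and a prior count of 2 enters log2 changes within an isolation. Between 14869115 and 17242117 counts per library limit the precision of low genes. None of the 24 pairs of libraries within a group agreed within sampling noise. The script was tested on simulated data. Named genes are the 4 members, *Eng*, the 3 genes nearest in profile to each member, genes overlapping a member, and up to 6 called genes of each of 9 lists, in order of the smallest p; marker genes and *Gm6175* were named besides. The members and lists were chosen with earlier results of these data known. Alternatives were no block, DESeq2 1.42.0, RLE scaling, other filters, 8 libraries only, quantile normalisation and ComBat (sva 3.50.0) before DESeq2, and leaving out each isolation.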

Additional observations from a re-analysis of the deposited data

Results flagged for a closer look

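In 32 sets of 4 values (CPM of each *Id* gene in each group, and its log2 changes in single isolations), the highest or lowest value was checked for its gap to the others, a check that chance alone meets in about 1 in 20 sets, and 2 sets met it. For *Id1*, the log2 increase with sENG(M):BMP9 in Ctrl cells was 3.20 in isolation 2, apart from 2.23 to 2.36 in the other isolations. For *Id3*, the log2 difference of KO from Ctrl cells with PBS was 0.15 in isolation 1, apart from -0.06 to -0.03 in the others. No difference between the ligand responses of both genotypes was called for any member.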

How the results depend on the processing

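Of 88 ligand log2 fold changes of the *Id* genes under alternatives, 86 kept their direction and passed the threshold, and 121 of 128 other values of the members kept their direction and side. Without the replicate block, *Id4* in KO cells had 1.32 (adjusted p = 0.179), and leaving out each isolation gave 0.98 to 1.58, below the threshold without isolation 2. *Id4* in KO against Ctrl cells with ligand passed the threshold without the filter on low counts (-0.84, adjusted p = 3.98e-06), with the 8 libraries of the comparison (-0.85, adjusted p = 0.0334) and with quantile normalisation, ComBat and DESeq2 (-0.85, adjusted p = 0.0129); without the filter, the fit gave every member 264051 error degrees of freedom in place of 17.9, and otherwise the cause was not tested. Leaving out isolations gave -0.93 to -0.77 for it. Values near 0 turned sign when an isolation was left out: *Id2* in KO against Ctrl cells with PBS ranged from -0.13 to 0.0252 (0.00905 without isolation 1, 0.0252 without isolation 2), *Id3* with PBS from -0.0490 (without isolation 1) to 0.0307, and *Id1* with ligand from -0.0126 (without isolation 4) to 0.0581.

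Counts of all genes called moved more. Without the block they were 167 (ligand in Ctrl), 91 (ligand in KO), 1 (KO against Ctrl with PBS) and 1 (with ligand). With quantile normalisation, ComBat (isolation as the batch) and DESeq2 they were 1406 for ligand in KO, 177 with PBS, 521 with ligand and 19 for the difference of responses. DESeq2 with the block called 64, 198 and 20 in the last 3 comparisons, and no filter called 204, 517 and 52. The 8 libraries alone gave 1 with PBS. Leaving out each isolation gave 1058 to 1392 (ligand in Ctrl), 573 to 745 (ligand in KO), 1 to 69 (with PBS; 69 without isolation 4) and 6 to 175 (with ligand; 175 without isolation 4). Depth limits *Id4*, whose counts ran from 11 to 150.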

Other observations

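The PBS levels of *Id1*, *Id2* and *Id3* differed between isolations in like ways in both genotypes, while those of *Id4* did not (highest in isolation 3 of Ctrl and isolation 1 of KO cells). With PBS, *Id1* and *Id2* were higher in isolations 3 and 4 than in isolations 1 and 2 in Ctrl as in KO cells, at 34.0 to 41.9 CPM against 19.8 to 23.3 CPM for *Id1* and 19.4 to 24.3 CPM against 10.2 to 15.96 CPM for *Id2*. *Id3* was lowest in isolation 4 in both genotypes, at 87.7 and 86.0 CPM, against 110.3 to 129 CPM in the other isolations. The share of *Id3* in the summed RPKM of the family accordingly ran from 53.3 to 74.6% over the Ctrl PBS libraries. Both cultures of an isolation come from the same cells, so these values are 4 isolations and not 8, and with 4 isolations no correlation was computed.

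Among the endothelial markers, *Kdr*, the main VEGF receptor, was higher with ligand, by 0.92 on the log2 scale in Ctrl cells (adjusted p = 0.000103, edgeR) and by 0.76 in KO cells (adjusted p = 0.00119), and *Pecam1* by 0.11 in Ctrl cells (adjusted p = 0.0314).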
